A study of Eriocheir sinensis with 6 samples.

Results

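Distal intergenic peaks are accessible regions that lie in no gene and outside every promoter. The regions described here are the distal intergenic peaks on the assembled sequences (names starting with CM) that lay more than 50 kb from the start site of the gene to which the authors' annotation linked them. They numbered 17454 of the 104657 merged peaks (16.7%), or 34.8% of the 50205 distal intergenic peaks on those sequences. The members were chosen by position and annotation and not by a measured change.

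ATAC-seq uses the Tn5 transposase, which cuts DNA where nucleosomes leave it open, so the read count in a region measures how accessible it was. In animal genomes, accessible DNA far from start sites includes enhancers, which bind transcription factors and act on promoters across a distance, as well as insulators and start sites that no annotation holds yet. The molt cycle of crustaceans is driven by ecdysteroids, steroid hormones that act through a nuclear receptor on chromatin, and muscle, that of the claws above all, is partly broken down before the old exoskeleton is shed and rebuilt after it. The link of a distant peak to the nearest gene is a label by position, and accessibility alone does not show which gene, if any, a region acts on.

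The muscle came from healthy farmed juvenile Chinese mitten crabs (*Eriocheir sinensis*), with 3 libraries at the post-molt stage and 3 at the pre-molt stage. Each library was made from 1 crab, so the spread within a stage includes that between animals. No treatment was given, and the stages differ in time within the molt cycle. The tissue was measured in bulk, so that a change in the share of a cell type and a change of accessibility within its cells cannot be told apart, and no marker check of the tissue was made on these DNA regions. The comparison asked whether distant accessible regions differed between the stages on either side of the shed. All changes are post-molt over pre-molt.

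Reads in merged peaks numbered between 10992785 and 12016383 in the post-molt libraries and between 11447679 and 16985168 in the pre-molt libraries. They made up 23.8% to 36.7% of all reads of a library, with the highest value in pre-molt replicate 2. The members held 1314219 to 1950958 reads per library, and the median member 39 to 45 reads. Over the members alone, Spearman's rho of the counts had a mean of 0.778 for library pairs of one stage (0.747 to 0.820), against 0.667 for pairs across the stages (0.586 to 0.727). The least like the pre-molt libraries was post-molt replicate 2, with a mean rho of 0.598, and the calls made without it are given beside the results.

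The distant regions were somewhat weaker than accessible regions as a whole, and close to the distal intergenic peaks at 10 to 50 kb. Their median mean count was 42.5 reads, against 46.2 at 10 to 50 kb, 52.2 over all merged peaks and 82.5 in promoter peaks. Their median width was 333 bp (200 to 4323 bp), against 335 bp at 10 to 50 kb and 347 bp over all merged peaks. The authors had called a peak in all 6 libraries in 15.3% of the members and in 1 library in 45.3%, against 16.1% and 44.4% of the peaks at 10 to 50 kb and 19.1% and 42.3% of all merged peaks. The median gap to the nearest other merged peak was 1684 bp for members, against 1386 bp for distal intergenic peaks within 50 kb, and 16.8% of members had no other peak within 10 kb, against 10.1%. Members were thus less crowded, yet most had neighbours.

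The median distance from the linked start site was 94.3 kb, and 8043 members lay beyond 100 kb, 202 beyond 500 kb and 57 beyond 1000 kb. They were linked to 2837 of the 17908 genes with any peak. Of these genes, 727 had 1 member, the median was 3 members, and 253 had no peak but members. Upstream of the start site lay 10008 members and past the gene 7446. All 72 CM sequences held members, between 25 and 1365 each.

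The 3 members farthest from any start site all lay on CM024130.1, upstream of evm.TU.CM024130.1.213, for which the sources used here give no gene name. The farthest, at CM024130.1:12204166-12204571 and 1616 kb from the start site, had 5.25, 3.86 and 3.76 CPM (read counts scaled to a common library size with TMM factors) post-molt, against 1.46, 2.03 and 2.35 CPM pre-molt. The post-molt libraries were all higher, but the change of 1.14 ± 0.41 (log2, SE) did not pass over all peaks (adjusted p = 0.0804). The other two, at 1535 and 1533 kb, had log2 changes of 0.23 and -0.31 with overlapping groups, and neither passed. At the 50 kb boundary, the 3 members just inside lay at 50.004, 50.007 and 50.014 kb and averaged 2.78, 4.75 and 1.95 CPM post-molt, against 1.41, 7.68 and 2.17 CPM pre-molt. The 3 peaks just outside the rule, between 49.998 and 49.999 kb, averaged 3.34, 1.80 and 3.45 CPM post-molt, against 2.37, 2.24 and 1.40 CPM pre-molt. Peaks on the 2 sides of the boundary thus had levels of the same order.

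Accessibility changed in 1619 of the 17454 members (9.28%), against 9.95% of all merged peaks. It rose post-molt in 883 members (5.06%, against 6.08% of all merged peaks), where the median log2 change was 1.80. It fell in 736 members (4.22%, against 3.86% of all merged peaks), where the median was -1.49. A peak was called at an adjusted p below 0.05 by edgeR's quasi-likelihood test, with the Benjamini-Hochberg adjustment over all merged peaks, and 4003 members had an unadjusted p below that value. The median log2 change over all members was -0.09, against -0.03 over all merged peaks. The share called was near that of all peaks. Of the called members 54.5% were higher post-molt, against 61.2% of all called peaks. Among the members, this share was 57.2% at 50 to 100 kb and smaller beyond 100 kb, where 356 rose and 342 fell. For distal intergenic peaks it was 65.8% within 10 kb and 60.04% at 10 to 50 kb, with 57.1% in the part at 20 to 50 kb. For promoter peaks it was 58.1%. The share of the members was thus below that of each of these other sets, and the differences were not tested. With the libraries centred on their median, 680 members rose and 894 fell (43.2% higher), beside 4.77% and 4.78% of all merged peaks. Leaving out post-molt replicate 2 reduced the number of members called to 648, and leaving out pre-molt replicate 2 gave 983. Leaving out pre-molt replicate 3 gave 906, of which 389 rose and 517 fell. More members also fell than rose with loess offsets (680 rose, 709 fell), with limma-voom (442 rose, 536 fell) and without pre-molt replicate 1 (596 rose, 720 fell). In every other alternative more rose than fell, so the direction with more calls depended on the processing.

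Over broad bands of distance, the share of distal intergenic peaks that rose was smaller farther from the start site. It was 7.39% of the 8745 distal intergenic peaks within 10 kb, 6.65% of the 24006 peaks at 10 to 50 kb, 5.60% of the 9411 members at 50 to 100 kb and 4.43% of the 8043 members beyond 100 kb. The shares that fell were 3.84%, 4.43%, 4.19% and 4.25% in the same order, with no such trend. In finer bands the decline of the risen share was not strict, with 6.47% at 3 to 5 kb and 7.78% at 5 to 10 kb. In all 16 alternatives run, the share of members that rose was below that of the nearer distal intergenic peaks, and the share beyond 100 kb was below that of all members. These differences in shares have no test of their own. Beyond 100 kb, 356 members rose, 342 fell and the median log2 change was -0.10. Leaving out post-molt replicate 2 gave 302 calls there, leaving out pre-molt replicate 2 gave 409, and leaving out pre-molt replicate 3 gave 416.

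Between 200 and 800 kb the members that fell outnumbered those that rose. Of the members at 200 to 400 kb, 4.01% rose and 5.09% fell, against 4.62% and 3.68% at 100 to 200 kb. In the band of 400 to 800 kb, 17 of 364 members rose (4.67%) and 31 fell (8.52%). These 31 were linked to 10 genes, and 10 of them to 1 gene, evm.TU.CM024140.1.133. Of the 78 members beyond 800 kb, 1 rose and 1 fell.

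**Figure D1:**
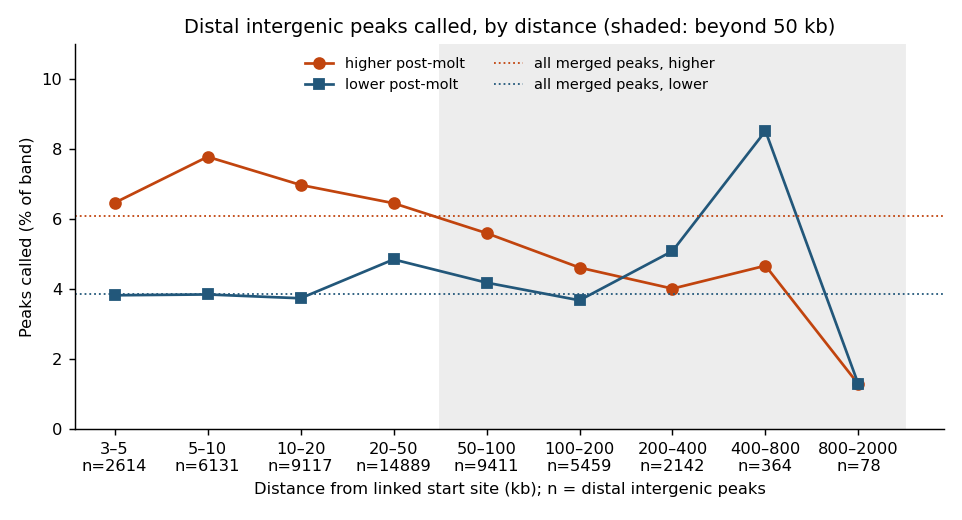
Percent of distal intergenic peaks called as higher (circles) or lower (squares) post-molt against distance from the linked start site in kb, with the number of peaks per band under the axis, the members shaded and the shares over all merged peaks as dotted lines. The share that rose was 5.60% at 50 to 100 kb and 4.01% at 200 to 400 kb, and the share that fell reached 8.52% in the thinly filled band of 400 to 800 kb.

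In the share of reads that the members took up as a whole, the stages overlapped. They held 11.6%, 11.5% and 12.0% of the reads in merged peaks in the post-molt libraries, against 12.4%, 11.5% and 12.1% in the pre-molt libraries. The means were 11.7% ± 0.269 post-molt and 12.0% ± 0.476 pre-molt (SD, n = 3 each), a difference of -0.282 percentage points (exact permutation p = 0.5, two-sided, where 3 against 3 cannot go below 0.1). It was -0.0695 without pre-molt replicate 1, -0.540 without pre-molt replicate 2, -0.434 without post-molt replicate 3 and -0.1761 without post-molt replicate 2, and -0.548 with all reads of a library as the denominator. Relative to the distal intergenic peaks within 50 kb, the log2 ratio of summed reads was -1.16 ± 0.04 post-molt and -1.10 ± 0.09 pre-molt (SD, n = 3 each). The difference, which asks whether the distant peaks moved apart from the nearer ones, was -0.06 with overlapping groups (two-sided exact permutation p = 0.4). It was -0.03 without pre-molt replicate 1, -0.04 without pre-molt replicate 3 and -0.11 without pre-molt replicate 2.

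The authors' peak lists held a peak in 6846, 7412 and 7519 members post-molt, against 7410, 8319 and 7836 members pre-molt. As shares of the members these were 39.2%, 42.5% and 43.1% post-molt, against 42.5%, 47.7% and 44.9% pre-molt, and the same lists covered 42.7%, 47.8% and 45.4% of all merged peaks post-molt, against 43.4%, 50.3% and 48.2% pre-molt. The mean numbers of members differed by -596, and the groups overlapped (two-sided exact permutation p = 0.3). Leaving out pre-molt replicate 2 gave -364, and leaving out post-molt replicate 1 gave -389.5. With a minimum of 5 on the -log10 q of a peak, the numbers were 4231, 4530 and 4371 post-molt, against 4572, 5987 and 4771 pre-molt. The groups then no longer overlapped (difference -733, exact permutation p = 0.1, the smallest that 3 against 3 can give). Pre-molt replicate 2, with the largest share of its reads in peaks, stood far above the rest. At this threshold no count was made over all merged peaks or with a library left out, so the difference cannot be called particular to the members. A peak was called in all 3 post-molt libraries and no pre-molt library in 245 members (1.40%, against 1.40% of all merged peaks), of which 163 rose. The opposite pattern held in 323 members (1.85%, against 1.68% of all merged peaks), of which 159 fell. Most members that rose lay where no pre-molt library had a peak call, 740 of 883 (83.8%), while 361 of the 736 that fell (49.0%) lay where no post-molt library had one. Over all merged peaks the same shares were 80.6% and 46.5%.

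Members that rose were weaker than members that fell, with medians of the mean count of 48.5 and 119.75 reads, beside 56.7 and 152 reads over all merged peaks that rose and fell. Among the members in the highest quintile of mean count over all merged peaks, 2.79% rose and 14.3% fell, against 3.64% and 10.4% of all merged peaks and 4.53% and 12.9% of the distal intergenic peaks within 50 kb in that quintile. In the middle quintile, 7.30% rose and 3.71% fell, against 9.09% and 2.45% of all merged peaks and 9.90% and 2.65% of the nearer distal peaks. In the lowest quintile, 2.89% of the members rose, against 2.83% of all merged peaks. The median log2 change in the highest quintile was -0.27 for members, -0.25 for the nearer distal peaks and -0.23 for all merged peaks. In the lowest quintile these medians were -0.10, 0.02 and 0.04. The quintiles were cut on unscaled mean counts, in which libraries with more reads in peaks weigh more. In each of these sets the highest quintile was shifted down under this scaling, and the shares by quintile were taken with TMM scaling only. These shares are a description with no test. The power to call a change differs between the quintiles, and in simulated counts 4-fold changes were recovered in 48 of 100 members and 2-fold changes in 0 of 100.

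**Figure D2:**
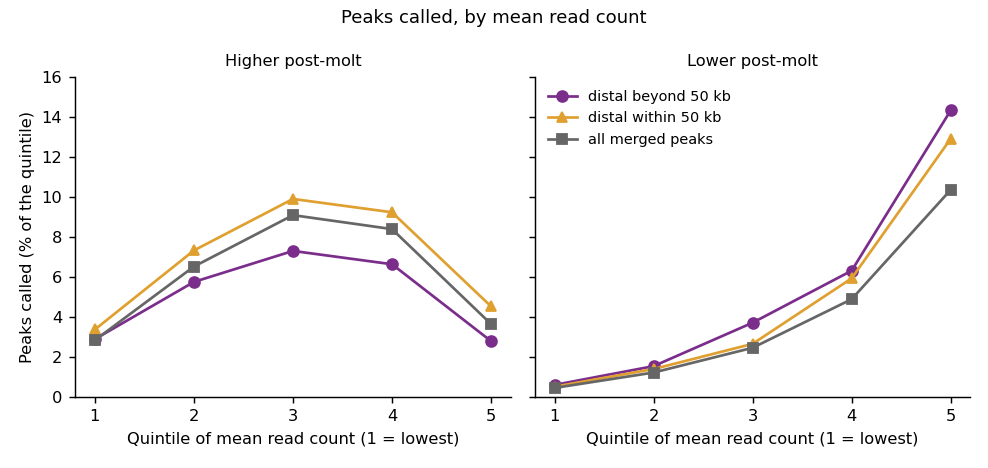
Percent of peaks called as higher (left panel) or lower (right panel) post-molt in each quintile of the mean read count over all merged peaks, for distal intergenic peaks beyond 50 kb (circles), those within 50 kb (triangles) and all merged peaks (squares). In the highest quintile, 14.3% of the members fell, against 10.4% of all merged peaks.

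The strongest members were not called with all 6 libraries. The highest, at CM024134.1:15489489-15490531 and 172 kb past the start of evm.TU.CM024134.1.353, had 1068, 905 and 1198 CPM post-molt, against 1286, 1053 and 1947 CPM pre-molt, a log2 change of -0.43 ± 0.29 (SE, adjusted p = 0.390). It passed with pre-molt replicate 2 left out (log2 -0.60, adjusted p = 0.0431), and with loess offsets its log2 change was 0.18. The second, at CM024140.1:6107833-6108562, had a log2 change of -0.37 ± 0.29, and the third, at CM024156.1:16835287-16838325, of -0.36 ± 0.30. In all 3 the groups overlapped. None of the 20 strongest members was called with all libraries.

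The members with the smallest p among those that rose fell together in place. Of the 5, 4 lay on CM024158.1, and 3 of these were neighbours within 3 kb, 78 to 80 kb past the start of evm.TU.CM024158.1.283. The first, at CM024158.1:11113311-11114007, had 8.26, 40.8 and 15.5 CPM post-molt, against 1.38, 0.840 and 1.22 CPM pre-molt, a log2 change of 4.23 ± 0.51 (SE, adjusted p = 7.7e-05). The next, at CM024158.1:11111223-11112266, had 19.6, 61.8 and 26.8 CPM post-molt, against 3.81, 3.57 and 2.96 CPM pre-molt. The third, at CM024158.1:11112466-11112914, had 9.99, 24.7 and 8.52 CPM post-molt, against 1.06, 0.350 and 1.305 CPM pre-molt. Post-molt replicate 2 was the highest library in all 3, and the groups did not overlap.

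The fourth on that sequence lay apart, at CM024158.1:10948517-10949137 and 67.8 kb upstream of evm.TU.CM024158.1.282, and had 9.47, 24.5 and 10.02 CPM post-molt, against 1.22, 1.54 and 1.39 CPM pre-molt. The fifth, at CM024148.1:14433400-14433792 and 109 kb upstream of evm.TU.CM024148.1.477, had 17.7, 14.1 and 14.3 CPM post-molt, against 2.76, 1.61 and 1.13 CPM pre-molt, a log2 change of 3.06 ± 0.38 (SE, adjusted p = 9.6e-05). Here the post-molt libraries lay close together. All 5 calls held under each of the 16 alternatives, with adjusted p of at most 0.0039. The 5 had a peak call in 2 or 3 of the 6 libraries. A peak called in 1 stage alone enters the merged peaks through the stage where it is high. The alternatives all used these same merged peaks, so the stable calls are not separate evidence of the direction.

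The 5 members with the smallest p among those that fell were spread over 3 sequences. The first, at CM024146.1:14587909-14588411 and 88.7 kb past the start of evm.TU.CM024146.1.406, had 2.07, 2.52 and 1.84 CPM post-molt, against 24.5, 28.3 and 20.1 CPM pre-molt, a log2 change of -3.50 ± 0.35 (SE, adjusted p = 3.2e-05). The second, at CM024147.1:13218873-13219165 and 174 kb past the start of evm.TU.CM024147.1.429, had 1.46, 1.26 and 2.09 CPM post-molt, against 14.8, 19.2 and 16.2 CPM pre-molt. Both had low and even values in the post-molt libraries.

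A pair of neighbours at CM024146.1:22123651-22125231, 87.5 to 88.0 kb upstream of evm.TU.CM024146.1.654, also fell. Of the pair, the narrower peak had 1.64, 1.498 and 1.84 CPM post-molt, against 17.5, 13.6 and 12.2 CPM pre-molt. The wider peak had 10.5, 8.12 and 6.60 CPM post-molt, against 74.4, 58.2 and 41.9 CPM pre-molt. The last of the 5 was the most distant, at CM024140.1:6866637-6867160 and 573 kb upstream of evm.TU.CM024140.1.143, with 4.56, 8.20 and 7.27 CPM post-molt, against 56.1, 48.2 and 41.6 CPM pre-molt (log2 change -2.86 ± 0.33, SE, adjusted p = 7.5e-05). The groups did not overlap in any of the 5, and the calls held under each of the 16 alternatives. These 5 had a peak call in 3 or 4 libraries, and the limit given for the risen members applies here too.

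**Figure D3:**
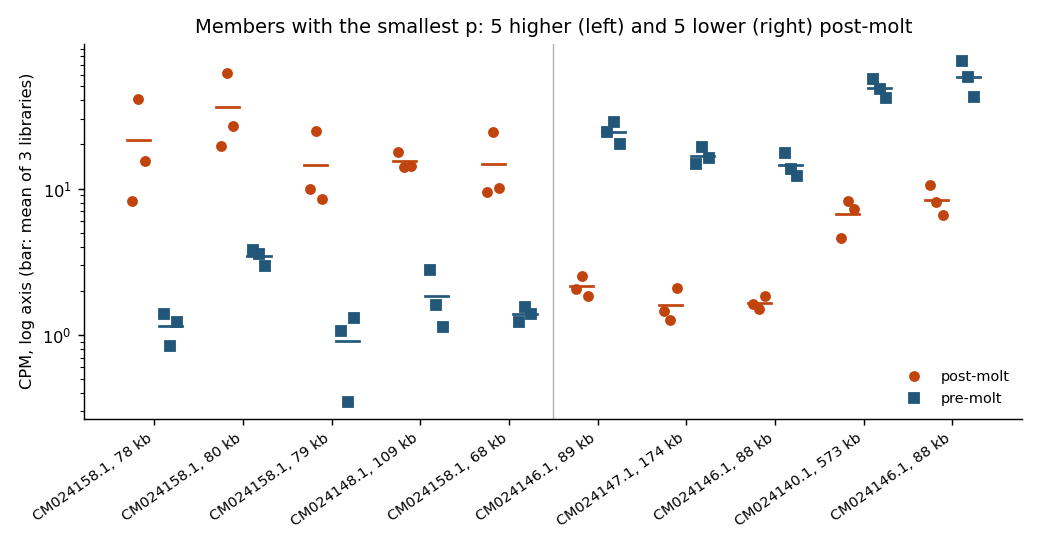
CPM on a log axis of the 5 members with the smallest p that rose (left of the line) and the 5 that fell (right of the line), each named by its sequence and its distance from the linked start site, with post-molt libraries as circles, pre-molt libraries as squares and a bar at the mean of 3 libraries. In the 4 members on CM024158.1, post-molt replicate 2 was the highest library, at 24.5 to 61.8 CPM.

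Neighbouring members that were both called mostly changed in the same direction. Among 11184 pairs of adjacent members with a gap of at most 10 kb, both were called in 472 pairs, and in 462 of these both moved the same way. In 1439 further pairs only 1 of the 2 was called. Over all merged peaks, 3466 of 3509 pairs with both called moved the same way, and only 1 was called in 10520. Neighbours are therefore not independent, and merged peaks were also summed in chains in which no gap exceeded 10 kb. Chains made up mostly of members numbered 5773 of 26162. Of these, 4.23% rose, against 4.99% of all chains, and 3.15% fell, against 2.45% of all chains, which made 7.38% called against 7.44%. The share of member chains called was 3.71% without post-molt replicate 2, and 4.90%, 4.28% and 3.05% without pre-molt replicates 1, 2 and 3.

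Of the member chains with 3 or more peaks, the one with the smallest p among those that rose was CM024166.1:10166882-10188392, 118 to 133 kb from the linked start sites, where all 5 peaks rose. Its summed level was 23.3, 32.9 and 22.1 CPM post-molt, against 5.99, 4.49 and 5.19 CPM pre-molt, a log2 change of 2.32 ± 0.28 (SE, adjusted p = 4.9e-04). Another chain on that sequence, CM024166.1:12629458-12643909, had 4 peaks that all rose, with 13.9, 19.9 and 15.8 CPM post-molt, against 3.91, 3.87 and 3.57 CPM pre-molt. The chain CM024158.1:11111223-11161104, which holds the 3 neighbours described above, had 112, 418 and 154 CPM post-molt, against 39.6, 29.5 and 36.4 CPM pre-molt, with post-molt replicate 2 far above the other libraries. The chain CM024101.1:5151507-5204371 had 34.6, 42.6 and 31.6 CPM post-molt, against 13.1, 8.92 and 8.51 CPM pre-molt. The longest of the 5, CM024160.1:17193050-17286795, spanned 93.7 kb, and 20 of its 23 peaks rose.

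Among the member chains that fell, CM024140.1:6697052-6724601 had the smallest p, and 6 of its 7 peaks fell, 420 to 448 kb from the start of evm.TU.CM024140.1.133. Its summed level was 18.8, 18.9 and 21.3 CPM post-molt, against 93.2, 139 and 73.3 CPM pre-molt, a log2 change of -2.37 ± 0.28 (SE, adjusted p = 4.9e-04). The chain CM024119.1:13391382-13400293 had 4.06, 3.80 and 3.77 CPM post-molt, against 15.0, 17.6 and 18.7 CPM pre-molt. The other three, CM024108.1:2100695-2110667, CM024139.1:4498196-4503706 and CM024146.1:14584436-14595985, had log2 changes of -2.10, -2.05 and -1.83. In all 10 chains the groups did not overlap, and the calls held in all 7 alternatives run for chains (adjusted p of at most 0.0224).

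**Figure D4:**
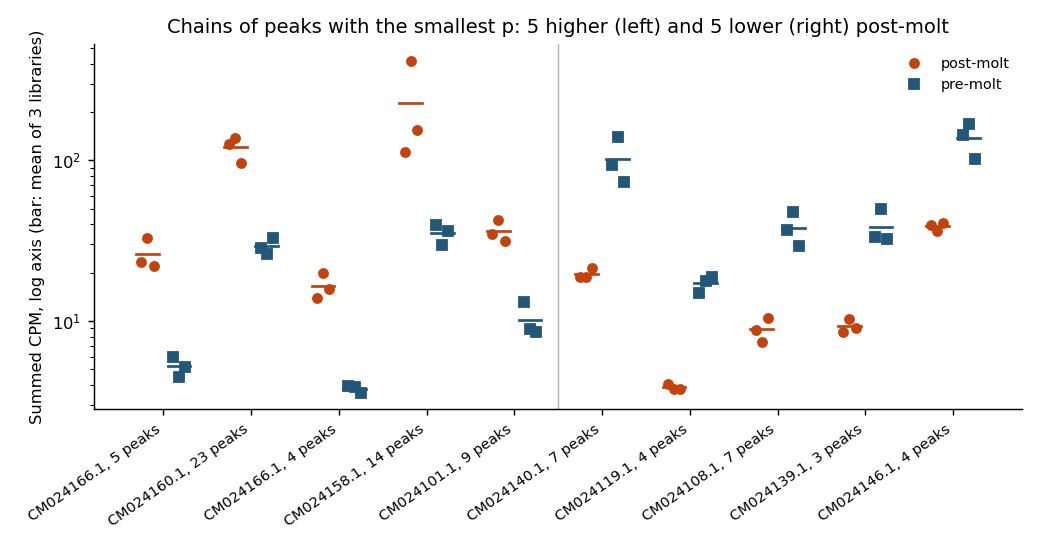
Summed CPM on a log axis of the 5 member chains with the smallest p that rose (left of the line) and the 5 that fell (right of the line), with post-molt libraries as circles, pre-molt libraries as squares and a bar at the mean of 3 libraries. The chain of 14 peaks on CM024158.1 had 418 CPM in post-molt replicate 2, against 112 and 154 CPM in the other post-molt libraries.

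The sequences differed in how many members were called. Over the 32 sequences with at least 200 members, the share that rose ran from 0.576% on CM024130.1 to 17.6% on CM024160.1 (median 4.77%), and the share that fell ran from 0% on CM024114.1 to 10.2% on CM024146.1 (median 4.82%). Over all peaks of the same sequences, 1.66% rose on CM024130.1 and 10.5% on CM024160.1, and 1.39% fell on CM024114.1 and 5.61% on CM024146.1. CM024137.1 held the most members, 1365, and of these 8 rose and 3 fell. With post-molt replicate 2 left out, 2 rose and 2 fell there, and with pre-molt replicate 3 left out, 1 and 1. The other 1916 peaks of that sequence were called more often, with 49 that rose and 66 that fell. Its members had a median absolute log2 change of 0.28, against 0.50 over all members, while their median SD of log2 CPM within a stage was 0.319, against 0.312. Without this sequence, 5.44% of the members rose and 4.56% fell, and beyond 100 kb 4.91% rose and 4.77% fell.

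On CM024160.1, 71 of 403 members rose, and 48 of these were linked to 2 neighbouring genes, evm.TU.CM024160.1.458 (35) and evm.TU.CM024160.1.457 (13). The first was the gene with the most risen members, and it is described here after its values were seen. All 37 of its members lay upstream, at CM024160.1:17127393-17260296, 52.1 to 184 kb from the start site, in a stretch of 133 kb. Of these, 35 rose, the log2 changes ran from 0.59 to 3.56 with a median of 2.20, and in 36 every post-molt library lay above every pre-molt library. Over all merged peaks, the same held in 5951 of the 6366 that rose and in 9739 of the 94247 not called. The members were weak, with means of 2.79 to 17.3 CPM post-molt and 0.353 to 4.73 CPM pre-molt, and in 34 no pre-molt library had a peak call. Those 34 were in the merged peaks through post-molt calls alone, which favours higher post-molt values, so their shared direction is not separate evidence. Their summed level was 221, 197 and 225 CPM post-molt, against 51.4, 45.6 and 47.2 CPM pre-molt, and the stages were thus even within themselves. Between 28 and 31 members rose with 1 library left out, and 21 with limma-voom. Of the 8 other peaks linked to this gene, 3 rose.

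The 5 genes with the most fallen members were also chosen after their values were seen. Of the 59 members linked to evm.TU.CM024147.1.333, 17 fell, and the summed level was 395, 282 and 393 CPM post-molt, against 622, 729 and 511 CPM pre-molt, a log2 change of -0.80 ± 0.24 (SE, adjusted p = 0.0472 over all gene sums; with 1 library left out, 0.0361 without pre-molt replicate 3 and 0.0668 to 0.274 otherwise). The number that fell was 6 and 10 without post-molt replicate 2 and 3, and 7 and 10 without pre-molt replicate 2 and 3. Of the 78 members linked to evm.TU.CM024158.1.583, 12 fell, and the change of the sum, -0.42 ± 0.24, did not pass (adjusted p = 0.310). There, 6 and 7 fell without post-molt replicate 2 and 3, 7 without pre-molt replicate 2 and 7 without pre-molt replicate 3, while 8 fell without post-molt replicate 1. In the other 3 genes a larger share fell. Of the 14 members linked to evm.TU.CM024146.1.654, 50.3 to 122 kb away, 13 fell, and their summed level was 163, 126 and 152 CPM post-molt, against 507, 519 and 321 CPM pre-molt. Of the 31 members linked to evm.TU.CM024140.1.133, 14 fell, with 156, 178 and 153 CPM post-molt, against 353, 444 and 309 CPM pre-molt. Of the 21 members linked to evm.TU.CM024119.1.359, 10 fell. None of the members linked to these 5 genes was called higher.

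The 2 genes with the most members had few calls. The first, evm.TU.CM024126.1.5, had 191 members up to 459 kb away, of which 0 rose and 2 fell. Its summed level was 1923, 1232 and 1541 CPM post-molt, against 2068, 1287 and 1756 CPM pre-molt, and the groups overlapped. evm.TU.CM024130.1.213 had 167 members, of which 0 rose and 1 fell. The next, evm.TU.CM024137.1.542, evm.TU.CM024137.1.560 and evm.TU.CM024135.1.5, had 154, 89 and 78 members with no call by edgeR. Other genes with more than 50 members had more calls, among them evm.TU.CM024147.1.333 and evm.TU.CM024158.1.583 above and evm.TU.CM024140.1.112, where 15 of 53 members rose. There, 3 rose without post-molt replicate 2, and 6, 5 and 7 without pre-molt replicate 1, 2 and 3. The 22 genes with more than 50 members held 1722 members, of which 2.56% rose and 3.66% fell, whereas of the 3681 members of the 127 genes with 21 to 50 members, 7.88% rose and 4.29% fell.

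Summed over all its members, a linked gene rose in 157 cases of 2837 (against 6.72% of all such sums, which keep members and other peaks of a gene apart) and fell in 135 (against 3.82%). Together these were 10.3%, against 10.5% of all sums. Of the 157, the other peaks of the same gene also rose in 51, fell in 2 and were not called in 99, and 5 genes had no other peak. Of the 135, the other peaks also fell in 35, rose in 1 and were not called in 90, and 9 genes had no other peak. The other peaks thus rose in 33.6% of the genes with risen members and other peaks, and fell in 27.8% of those with fallen members. Where the members' sum was not called, the other peaks rose in 102 genes (4.42%) and fell in 90 (3.90%). These counts have no test. The number of genes called was 162 without post-molt replicate 2 and 173 without pre-molt replicate 3.

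The study followed a set of genes that it counted as G protein-coupled receptors, which pass signals of hormones and transmitters from the cell surface inward. The study chose them on data that include these samples, so their direction here is not independent evidence. Members were linked to FMRFaR, SSTR2, moody and Kpna6, 28 in all, of which 3 rose and 7 fell. Over all merged peaks, 6.08% rose and 3.86% fell. Of the 7 fallen members, 5 were linked to SSTR2 alone. GRM7, gpr161 and mth2 had linked peaks but no members.

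SSTR2, named for a vertebrate receptor of the peptide hormone somatostatin, had 11 of its 17 linked peaks among the members, 85.7 to 161 kb upstream at CM024152.1:8747842-8823024. All 11 had negative log2 changes, between -0.80 and -3.20 with a median of -1.51. Of these, 5 fell, against 3.86% of all merged peaks. In 8 of the 11 no post-molt library had a peak call. Those 8 were in the merged peaks through pre-molt calls alone, which favours lower post-molt values, so the shared sign is not separate evidence. The member at CM024152.1:8779242-8780008 had 4.39, 3.31 and 9.19 CPM post-molt, against 23.8, 30.5 and 31.6 CPM pre-molt, a log2 change of -2.35 ± 0.37 (SE, adjusted p = 5.8e-04). The one at CM024152.1:8806921-8807339 had 0.689, 0.236 and 1.00 CPM post-molt, against 6.98, 4.76 and 6.09 CPM pre-molt, and that at CM024152.1:8781875-8782292 had 1.55, 1.81 and 2.42 CPM post-molt, against 6.73, 7.91 and 5.57 CPM pre-molt. In these 3 the groups did not overlap, and the calls held under each of the 16 alternatives.

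The remaining 2 that fell were less stable. The member at CM024152.1:8757128-8757487 had 3.61, 2.60 and 3.26 CPM post-molt, against 6.004, 8.12 and 9.13 CPM pre-molt (adjusted p = 0.0227), and that at CM024152.1:8822642-8823024 had 1.89, 0.946 and 1.67 CPM post-molt, against 3.57, 4.34 and 4.96 CPM pre-molt (adjusted p = 0.0281). Neither was called when post-molt replicate 2, post-molt replicate 3, pre-molt replicate 2 or pre-molt replicate 3 was left out (adjusted p between 0.0628 and 0.140). Summed over the 11 members, SSTR2 had 39.4, 24.3 and 42.2 CPM post-molt, against 102, 85.3 and 93.9 CPM pre-molt, a log2 change of -1.41 ± 0.25 (SE, adjusted p = 0.0025). The sum includes the 8 members present through pre-molt calls alone, which favours a lower post-molt sum, so it is not separate evidence. Of the 6 members of SSTR2 that were not called, 1 was called under 6 alternatives and a further 2 under 1 each. The 6 other peaks of SSTR2 gave a log2 change of -1.46 (adjusted p = 0.0021).

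FMRFaR, in Drosophila the receptor of FMRFamide neuropeptides, which act on muscle and nerve, had 13 of its 19 linked peaks among the members, 52.2 to 94.3 kb upstream at CM024127.1:6183250-6225632. Here the directions were mixed within 42.4 kb. The member at CM024127.1:6221821-6222081 had 3.79, 7.49 and 5.51 CPM post-molt, against 0.811, 1.26 and 1.13 CPM pre-molt, a log2 change of 2.38 ± 0.43 (SE, adjusted p = 0.0017). Those at CM024127.1:6217574-6217851 and CM024127.1:6211097-6211464 also rose, with log2 changes of 1.92 ± 0.38 and 2.01 ± 0.41, and post-molt replicate 2 was the highest library in all 3. No pre-molt library had a peak call in any of the 3. They were in the merged peaks through post-molt calls alone, which favours higher post-molt values, so their direction is not separate evidence.

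Between these risen members lay stronger ones that were not called, such as the member at CM024127.1:6213215-6214637 with 33.0, 41.4 and 26.4 CPM post-molt, against 17.5, 60.7 and 48.1 CPM pre-molt. The member at CM024127.1:6208207-6208557 fell, with 2.32, 2.36 and 1.92 CPM post-molt, against 2.27, 7.56 and 7.57 CPM pre-molt (adjusted p = 0.0446), and its groups overlapped. That call was lost in 8 of the 16 alternatives, among them the removal of any library but pre-molt replicate 1 (adjusted p between 0.0709 and 0.195). This member was in the merged peaks through pre-molt calls alone, which favours lower post-molt values. Summed over its members, FMRFaR was not called (log2 0.25 ± 0.29, SE, adjusted p = 0.656), whereas its 6 other peaks rose together (log2 1.34, adjusted p = 0.0161).

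The gene moody, in Drosophila a receptor that glia need for the blood-brain barrier, had 3 of its 22 linked peaks among the members, 54.2 to 67.2 kb upstream. The member at CM024100.1:16922170-16922718 fell, with 4.91, 3.78 and 5.10 CPM post-molt, against 10.1, 29.5 and 12.4 CPM pre-molt, a log2 change of -1.92 ± 0.39 (SE, adjusted p = 0.0034). Pre-molt replicate 2 was the highest, but the groups did not overlap. The other two had log2 changes of -0.88 and -0.90 that did not pass. Summed, the 3 had 8.91, 8.497 and 8.996 CPM post-molt, against 17.04, 35.1 and 19.2 CPM pre-molt, a log2 change of -1.44 ± 0.28 (SE, adjusted p = 0.0049). The 19 other peaks of moody, of which 10 fell, gave a log2 change of -1.18 (adjusted p = 0.0076). Kpna6 is named for an importin alpha, a carrier of proteins into the nucleus, although the study predicted the transmembrane helices of a receptor for this crab gene. It had 1 member, with a log2 change of -0.30 ± 0.55 (adjusted p = 0.796).

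**Figure D5:**
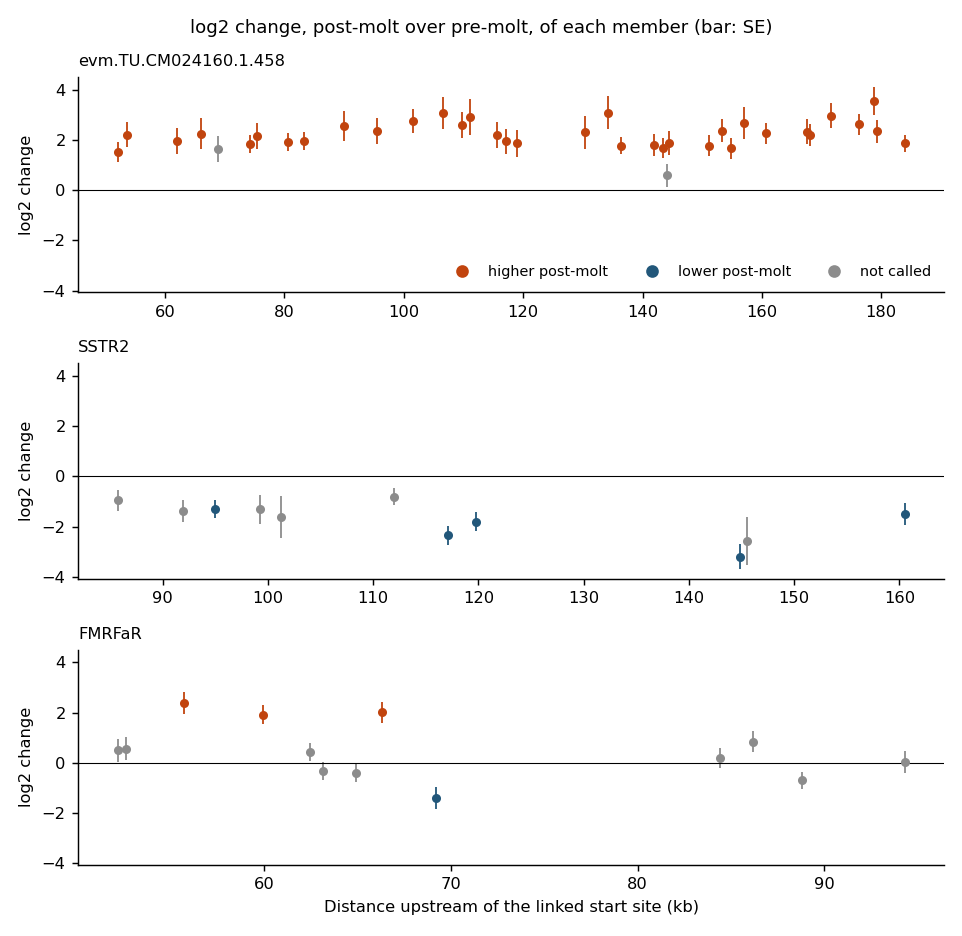
Log2 change (post-molt over pre-molt, with its SE as a bar) of each member against its distance upstream of the linked start site in kb, for evm.TU.CM024160.1.458, SSTR2 and FMRFaR, with members called by edgeR in colour and the others in grey. The 37 members of evm.TU.CM024160.1.458 were all above 0 and the 11 of SSTR2 all below 0, while the 13 of FMRFaR ran from -1.39 to 2.38. No pre-molt library had a peak call in 34 of the 37, and no post-molt library in 8 of the 11. Of the 13, 4 had no pre-molt peak call and 6 had no post-molt peak call.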

How the data were processed

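Peaks were called by the authors with MACS2 on reads aligned with BWA, both named in the submitters' processing notes, and annotated to the nearest gene start. The merging of peaks, the counting of reads and any shift for the Tn5 offset are not given in the sources used here. The deposited table holds whole-number read counts per merged peak, RPM values that the authors derived from count plus 1, and their fold enrichment, a ratio of RPM per base over a uniform background. RPM gave the library totals of an alternative, and fold enrichment a description and an alternative. The deposited peak lists give the -log10 of each summit's q-value, used as a threshold. The signs in the table that mark a peak of a library matched the filed lists in 100% of the members. The titles and the peak names within the lists give different library numbers, and samples were taken from the filing. The authors' own fold changes, p-values and q-values in the table were not used. No genome of this assembly was used, so no sequence is shown.

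Coordinates are 1-based in the authors' assembly, and distances run from the nearer edge of a peak. Counts were tested with edgeR 4.0.16 in R 4.3.3 (glmQLFit, TMM, no filter, stage only, 2-sided) over all 104657 peaks, and sums over chains and linked genes likewise. Alternatives were DESeq2 1.42.0, limma 3.58.1, other scalings, a filter on low counts, a replicate block and leaving out each library. Python 3.11.15 with scipy 1.17.1 gave the exact permutation tests. The test was tested on simulated data for all 104657 peaks, in which 4 of 52 calls were false. PCR copies count as reads, so depth limits cover counting error only.

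The members, lists and tests were chosen with earlier results of these data known. Named are the 5 members with the smallest p in each direction (at least 30 reads), the 3 strongest, the 3 farthest, the 3 on either side of 50 kb, 5 chains of 3 or more peaks in each direction, the 5 genes with most members, and members of receptor genes that the study followed, of which 1 is not reported here.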

Additional observations from a re-analysis of the deposited data

How the results depend on the processing

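The median log2 change of the members was -0.21 with libraries centred on their median, between -0.137 and -0.0169 with 1 library left out, and negative in all 16 alternatives. The median over all merged peaks moved too, to -0.15 with that centring. The members' median minus that of all merged peaks was -0.064 there, against -0.066 with TMM, and ran from -0.106 to -0.030 over the alternatives. The number of members called was 978 with limma-voom (420 beyond 100 kb), and it was 698 with a distance of 100 kb in place of 50 kb. With 1 library left out it ran between 648 and 1412, and beyond 100 kb between 302 and 632. The share of member chains called was 8.72% (771 chains) with gaps of at most 5 kb and 6.14% (209 chains) with gaps of at most 20 kb, and between 3.05% and 7.43% with 1 library left out. Linked genes called ran between 162 and 266 with 1 library left out. With the replicate number as a block, 783 members rose and 625 fell. Of the named members, that block lost 1 call, of a member linked to FMRFaR, and added 1, of a member linked to SSTR2 (adjusted p = 0.0421). Libraries of the same number come from different crabs, and their deviations from the stage means correlated at -0.09, -0.10 and -0.03, so the numbers do not pair them. The differences in read share, in the ratio to nearer peaks and in peak calls kept their sign in every alternative, and with 3 libraries against 3 the exact permutation test cannot go below p = 0.1. Of the 30 named members and chains called, 27 stayed called in every alternative run for them. The alternatives used the same merged peaks, so they do not address how a peak entered the list. In simulated counts, in which 200 peaks were changed, 0 of 100 members changed 2-fold were recovered. With 52 calls there, against 10410 in the data, the adjustment was stricter, so this recovery does not give the power of the real fit. Smaller changes can still go uncalled.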
